A study of Homo sapiens with 24 samples.

Results

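The genes described here are 6 receptor tyrosine kinase genes whose products dasatinib binds and the 4 genes of the platelet-derived growth factors (PDGF). The receptors were PDGFRA, PDGFRB, KIT, CSF1R, DDR1 and DDR2, and the ligands were PDGFA, PDGFB, PDGFC and PDGFD. They were chosen by name, and all 10 were found once in each of 4 tables that cover 29639 gene rows. Messenger RNA had been sequenced from Rh30, a line of alveolar rhabdomyosarcoma, and from RD, a line of embryonal rhabdomyosarcoma; this tumour belongs to the skeletal muscle lineage. Each line was kept for 5 days in 1 of 4 treatments: solvent DMSO alone, 0.5 µM SGI-110, dasatinib, or SGI-110 and dasatinib together. Every drug was dissolved in DMSO. The labels do not say plainly whether the 0.5 µM also holds for dasatinib. SGI-110 releases decitabine, which enters DNA and inactivates DNA methyltransferases, and dasatinib inhibits SRC and ABL kinases as well as these receptors. There were 3 libraries in each of the 8 groups, 24 in all. Each group was grown from 1 established line, and the labels call the 3 libraries of a group biological replicates, so the spread between them is not that between tumours.

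PDGF ligands are dimers that bring a pair of PDGF receptors together, after which the receptors phosphorylate each other and recruit adaptors such as GRB2 and SHC1. KIT and CSF1R belong to the same receptor family and answer to stem cell factor (KITLG) and to CSF1 or IL34. DDR1 and DDR2 are a separate family that is activated by collagen. PDGFRA and PDGFRB are best known in fibroblasts and in the mural cells of vessels, KIT in mast cells and melanocytes, and CSF1R in macrophages.

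SGI-110 acts on cytosine methylation at CpG dinucleotides, so stretches before a transcript start of 5 receptor genes are shown first, with each CpG in capitals. They were picked after the values were seen, as 2 receptors measured only with SGI-110 (KIT and PDGFRA), 2 that rose (CSF1R and PDGFRB) and the receptor that fell (DDR2). The sequences are RefSeq reference sequence of build GRCh38.p14, from the 250 bases before an annotated transcript start, without bases that GENCODE release 29 places in an exon of the gene. The start shown for each gene is the one with the longest such stretch, and for DDR2, where 3 starts tie, the first of them. The PDGFRA stretch therefore lies inside the gene, before its second start. The DDR2 stretch ends at 162630862, before the start of the gene in GENCODE at 162631373. DDR1, which also rose with SGI-110, is not shown. The KIT stretch is chr4:54657707-54657917 (plus strand), that of PDGFRA chr4:54233710-54233959 (plus), that of CSF1R chr5:150113373-150113615 (minus), that of PDGFRB chr5:150155873-150156095 (minus) and that of DDR2 chr1:162630613-162630862 (plus).
KIT: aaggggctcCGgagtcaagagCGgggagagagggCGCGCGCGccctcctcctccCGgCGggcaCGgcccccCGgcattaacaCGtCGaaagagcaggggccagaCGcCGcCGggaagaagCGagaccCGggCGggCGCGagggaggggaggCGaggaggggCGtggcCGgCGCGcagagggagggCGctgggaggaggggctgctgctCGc
PDGFRA: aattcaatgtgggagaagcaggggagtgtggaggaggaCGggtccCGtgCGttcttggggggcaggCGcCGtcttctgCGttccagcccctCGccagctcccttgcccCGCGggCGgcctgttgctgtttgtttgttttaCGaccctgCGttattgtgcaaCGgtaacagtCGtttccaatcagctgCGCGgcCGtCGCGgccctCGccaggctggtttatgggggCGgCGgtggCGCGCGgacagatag
CSF1R: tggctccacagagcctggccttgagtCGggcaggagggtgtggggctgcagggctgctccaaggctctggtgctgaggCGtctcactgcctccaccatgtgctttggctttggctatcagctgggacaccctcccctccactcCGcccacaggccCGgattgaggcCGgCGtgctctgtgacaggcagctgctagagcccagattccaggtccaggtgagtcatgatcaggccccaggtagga
PDGFRB: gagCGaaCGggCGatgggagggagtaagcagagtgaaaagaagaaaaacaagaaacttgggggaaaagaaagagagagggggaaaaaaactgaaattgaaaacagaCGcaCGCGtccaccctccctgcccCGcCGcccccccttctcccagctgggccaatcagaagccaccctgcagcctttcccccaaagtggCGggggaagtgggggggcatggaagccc
DDR2: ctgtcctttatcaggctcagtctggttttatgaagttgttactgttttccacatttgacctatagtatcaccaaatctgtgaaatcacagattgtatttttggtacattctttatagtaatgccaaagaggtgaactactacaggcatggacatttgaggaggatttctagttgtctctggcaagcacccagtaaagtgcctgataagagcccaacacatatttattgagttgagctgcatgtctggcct
The stretches hold 27 CpG in KIT, 25 in PDGFRA, 6 in CSF1R, 9 in PDGFRB and 0 in DDR2. Counted over the full 250 bases, the motif CG (its own reverse complement, so both strands are covered) was present in 93.9% of 35116 RefSeq promoter windows, with a median of 11 per window. KIT reached 34, and 6.84% of windows had as many or more. PDGFRA had 25 at the start shown and 8 at its other start, and DDR2 had 0 to 3 over its 3 starts. Among the rest, PDGFD had 23, PDGFA 17 to 40 over 4 starts, DDR1 2 to 30 over 8 starts, and CSF1R 2 to 6 over 2 starts; 8 of the 10 genes matched an entry. Methylation was not analysed here.

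The tables hold the authors' own comparisons and no value per library, so the total count of each library is unknown and no counting interval can be given. The cell line is not named in them, and the largest standard errors are those of 3 libraries per treatment, so every change below is that of 1 line that the tables leave unnamed. A level per treatment was solved here from the deposited fold changes and standard errors, as normalised counts per library of that line. The variance of the dasatinib group was computed from the other 3 treatments and a fitted term for dasatinib. The median gap was 0.379% over 3108 genes. That term was itself fitted with the dasatinib variances, so the gap is not an independent prediction. Given that term, which is the same for all genes, the dasatinib variances lay close to the fit of the other 3. The 2 comparisons computed here rest on a shared fit, which this gap cannot establish independently. The ± after a log2 value is its standard error, and a gene was counted as changed at an adjusted p under 0.05. A treatment is called not measurable for a gene where the standard error of that group reached 1.17 log2, the value found at a fitted mean of 0.5 counts per library. The muscle lineage of the line was visible in MYOD1, whose solved level was 7212 with DMSO and 8359, 8123 and 8862 with SGI-110, dasatinib and both drugs. Desmin (DES) stood at 9424 with DMSO and myogenin (MYOG) at 3271. Of 9 muscle lineage markers, 7 were measurable with DMSO, while MYF6 and PAX7 were not.

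**Figure D1:**
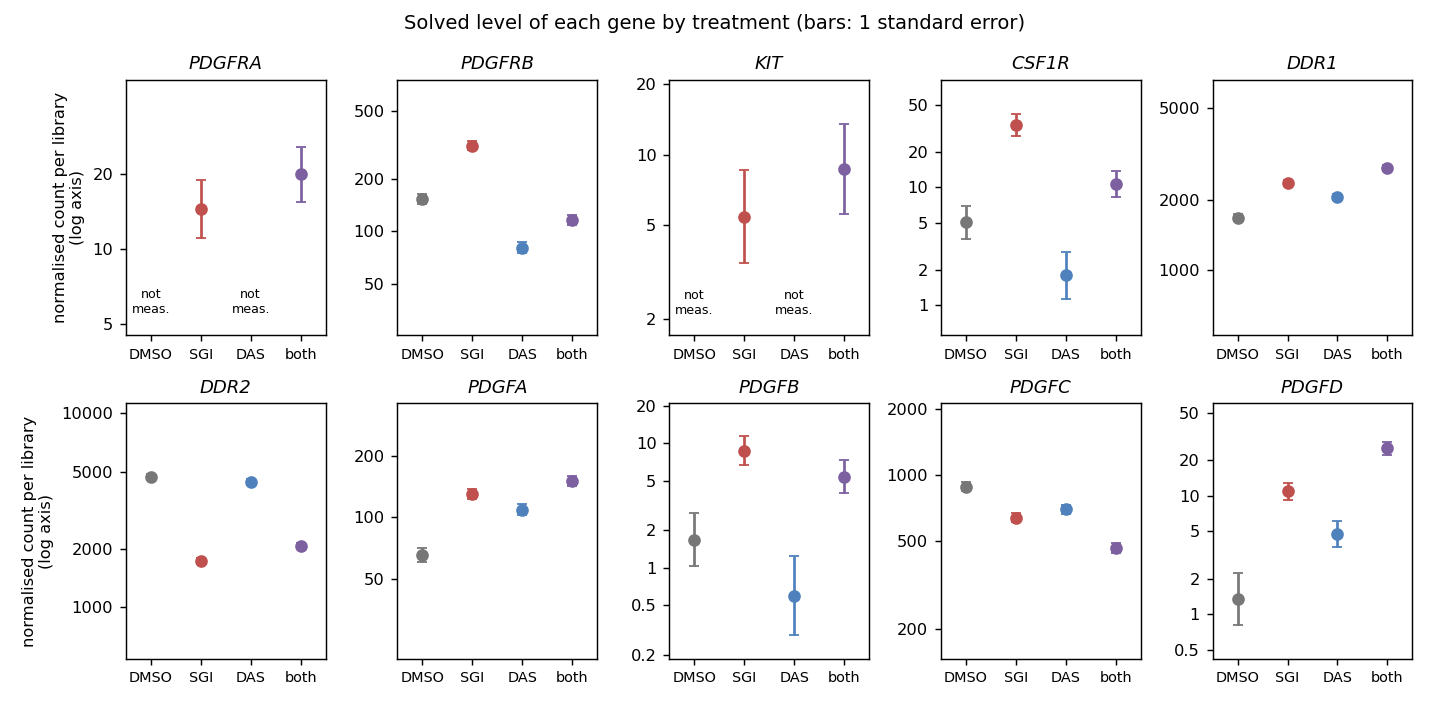
Solved level of the 6 receptor genes and 4 PDGF genes (normalised counts per library, log axis) with DMSO, SGI-110 (SGI), dasatinib (DAS) and both drugs; bars are 1 standard error of the group mean from 3 libraries. PDGFRA and KIT had measurable levels only where SGI-110 was present, PDGFRB and CSF1R were highest with SGI-110 and lowest with dasatinib, and DDR2 was lower in both groups with SGI-110.

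With DMSO the collagen receptor DDR2 was the most abundant of these genes in the compared line. Per kilobase of exon, which allows levels of different genes to be set side by side, DDR2 stood at 435.6 normalised counts, DDR1 at 184.9, PDGFC at 158.7, PDGFRB at 21.66 and PDGFA at 15.75. CSF1R at 0.9795, PDGFB at 0.4466 and PDGFD at 0.3153 were near the limit of detection. The errors of these last 3 levels were 0.47, 0.71 and 0.72 log2, and their order was not tested. The order of DDR1 and PDGFC was not firm either. Solved without a fitted term per treatment group, DDR1 stood at 1190 over 9122 exon bases and PDGFC at 954.1 over 5593. Per kilobase, PDGFC then lay above DDR1. PDGFRA and KIT were not measurable with DMSO.

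PDGFRA encodes the receptor that binds most PDGF chains. Its solved level was not measurable with DMSO, 14.49 with SGI-110 (standard error 0.39 log2, n = 3), not measurable with dasatinib and 20.01 with both drugs (0.37 log2). The transcript was thus detected in both groups that received SGI-110 and in neither of the others. The adjusted p in the authors' deposited table was 3.97e-06 for SGI-110 and 6.05e-07 for the combination, each against DMSO. No fold change against DMSO is given, because the DMSO level was not measurable. The dispersion of PDGFRA solved from the groups with SGI-110 was 0.1548, and that from DMSO at a mean of 0.5 counts was 0.1551. Adding dasatinib to SGI-110 gave a log2 change of 0.47 ± 0.54 (95% interval -0.58 to 1.52, adjusted p = 0.576) per the authors' deposited table. PDGFRA lies at chromosome 4, 54229097 to 54298247 (GRCh38, GENCODE release 29), and 15.8% of its exon bases are shared with the gene AC058822.1 on the same strand, so its counts are uncertain where shared reads were split or dropped.

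KIT, the receptor for stem cell factor, was detected in the same groups. It lies 360 kb from PDGFRA on the same chromosome (54657918 to 54740715). Its solved level was 5.441 with SGI-110 (0.66 log2, n = 3) and 8.688 with both drugs (0.63 log2), and not measurable with DMSO or with dasatinib. The adjusted p in the authors' deposited table was 0.00249 for SGI-110 and 0.000444 for the combination against DMSO. For dasatinib alone the authors' deposited table gives no adjusted p. Between the combination and SGI-110 the log2 change was 0.68 ± 0.92 (adjusted p = 0.649) per the authors' deposited table, an interval of -1.12 to 2.47. The dispersion, the fit's term for spread between libraries beyond counting error, was solved as 0.4762 for KIT and 0.006494 for PDGFRB. It came from the deposited standard errors and not from counts per library, so it is not a measured spread between replicates. Of 4 mast cell markers, TPSAB1, CPA3 and MS4A2 were not found among the gene rows. HDC had solved levels of 4.745 with SGI-110 and 6.873 with both drugs and was not measurable in the other groups. Of the melanocyte markers, MLANA and TYR were not found among the gene rows. PMEL and DCT summed to 71.66 under DMSO, 207.8 under SGI-110, 73.83 under dasatinib and 119.7 under both drugs. These markers were read as transcripts of a cultured line, and their part in the KIT result was not tested.

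PDGFRB, the main receptor for PDGFB and PDGFD, moved in opposite directions under the 2 drugs. It lies at chromosome 5, 150113837 to 150155872 (GRCh38, GENCODE release 29). Its solved level was 154.6 under DMSO, 314.1 under SGI-110, 80.55 under dasatinib and 116.1 under both drugs, with group standard errors of 0.08 to 0.11 log2 (n = 3). The 4 levels were thus ordered SGI-110, DMSO, combination, dasatinib, and each neighbouring pair differed past the threshold. SGI-110 raised it 2.032-fold (1.02 ± 0.12, adjusted p = 2.18e-15) per the authors' deposited table. Dasatinib lowered it (-0.94 ± 0.15, adjusted p = 1.92e-09) per the authors' deposited table. With both drugs it was below DMSO (-0.41 ± 0.14, adjusted p = 0.00698) and below SGI-110 alone (-1.44 ± 0.13, adjusted p = 1.81e-27) per the authors' deposited table. SGI-110 still raised it in the presence of dasatinib, by 0.53 ± 0.15 (adjusted p = 0.00131, computed here from the authors' deposited table). The dasatinib effect was 0.50 log2 more negative with SGI-110 than without (-0.50 ± 0.19, adjusted p = 0.0672, computed here from the authors' deposited table), which misses the threshold; the adjusted p was 0.0325 when the test was limited to genes whose mean normalised count was 50 or more.

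Markers of cells that usually carry PDGFRB were looked at beside it. The 5 pericyte markers were measurable in all 4 treatments and summed to 7116 under DMSO, 8298 under SGI-110, 5356 under dasatinib and 5185 under both drugs. Of these 5, dasatinib lowered 2 and raised 1, where 13.2% of all genes were lower and 17.8% higher, per the authors' deposited table. MCAM (-1.08 ± 0.06) and CSPG4 (-0.79 ± 0.08) fell and NOTCH3 (0.34 ± 0.08) rose, per the authors' deposited table. RGS5 (-0.13 ± 0.18, adjusted p = 0.654) and ANPEP (-0.19 ± 1.45, adjusted p = 0.945) did not pass the threshold, per the authors' deposited table. Of 6 fibroblast markers, 4 were higher and 1 lower with SGI-110, where 30.4% of all genes were higher and 17.1% lower. The summed level of these markers was 669.2 under DMSO, 1508 under SGI-110, 602.4 under dasatinib and 1231 under both drugs. Most of that sum was THY1, at 617.4 with DMSO and 1456 with SGI-110. LUM was measurable in every treatment, at 50.07 with DMSO and 30.33 with SGI-110, and DCN, FAP and PDPN were not measurable with DMSO or dasatinib. Each library came from a cultured tumour line, so these genes were followed as transcripts of that line and do not count pericytes or fibroblasts. Shares of cells within the line and RNA per cell cannot be told apart in bulk RNA. The part of these markers in the PDGFRB result was not tested.

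CSF1R, the receptor for CSF1 and IL34, lies directly behind PDGFRB on chromosome 5 (150053291 to 150113372), with 464 bases between the 2 genes. Its solved level was 5.046 under DMSO, 33.91 under SGI-110, 1.795 under dasatinib and 10.66 under both drugs, with group standard errors of 0.31 to 0.65 log2 (n = 3). SGI-110 gave the highest and dasatinib the lowest level, as for PDGFRB. SGI-110 raised it 6.721-fold (2.75 ± 0.56, adjusted p = 4.95e-06) per the authors' deposited table. Dasatinib on top of SGI-110 lowered it (-1.67 ± 0.49, adjusted p = 0.00322) per the authors' deposited table. Dasatinib alone gave -1.49 ± 0.80 (adjusted p = 0.157) and the combination 1.08 ± 0.60 (adjusted p = 0.131) against DMSO in the authors' deposited table, neither past the threshold. The dasatinib effects with and without SGI-110 differed by -0.18 ± 0.94 log2 (adjusted p = 0.989, computed here from the authors' deposited table), an interval of -2.02 to 1.66. Of 6 macrophage markers, AIF1 was not found among the gene rows, and CD68, CD163 and TYROBP were not measurable with DMSO or with dasatinib. FCER1G rose with SGI-110 (adjusted p = 1.11e-19) from a solved level of 3.047 to 103.3, and CD14 stood at 5.693 with DMSO and 14.23 with SGI-110 (adjusted p = 0.0473) per the authors' deposited table. The summed level of the markers that could be solved was 8.74 under DMSO, 117.6 under SGI-110, 10.1 under dasatinib and 56.56 under both drugs. These markers, too, were read as transcripts of a cultured line, and their part in the CSF1R result was not tested.

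DDR1 and DDR2, both receptors for collagen, went opposite ways under SGI-110. DDR1 (chromosome 6, 30876421 to 30900156) had solved levels of 1687 under DMSO, 2372 under SGI-110, 2070 under dasatinib and 2747 under both drugs, with group standard errors of 0.04 to 0.05 log2 (n = 3). Each drug raised it, and the combination was highest. The log2 changes against DMSO were 0.49 ± 0.06 for SGI-110, 0.30 ± 0.06 for dasatinib and 0.70 ± 0.06 for both drugs, with adjusted p of 9.45e-14, 3.32e-05 and 2.53e-27 in the authors' deposited table. DDR2 (chromosome 1, 162631373 to 162787400) had solved levels of 4674, 1734, 4427 and 2058 in the same order. The 2 groups with SGI-110 were low and the 2 groups without it high. SGI-110 lowered DDR2 by 1.43 log2 (-1.43 ± 0.07, adjusted p = 2.79e-81), a 2.696-fold fall, in the authors' deposited table. Dasatinib alone gave -0.08 ± 0.07 (adjusted p = 0.47, interval -0.22 to 0.06) per the authors' deposited table. On top of SGI-110, dasatinib raised DDR2 slightly (0.25 ± 0.07, adjusted p = 0.00465) per the authors' deposited table.

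**Figure D2:**
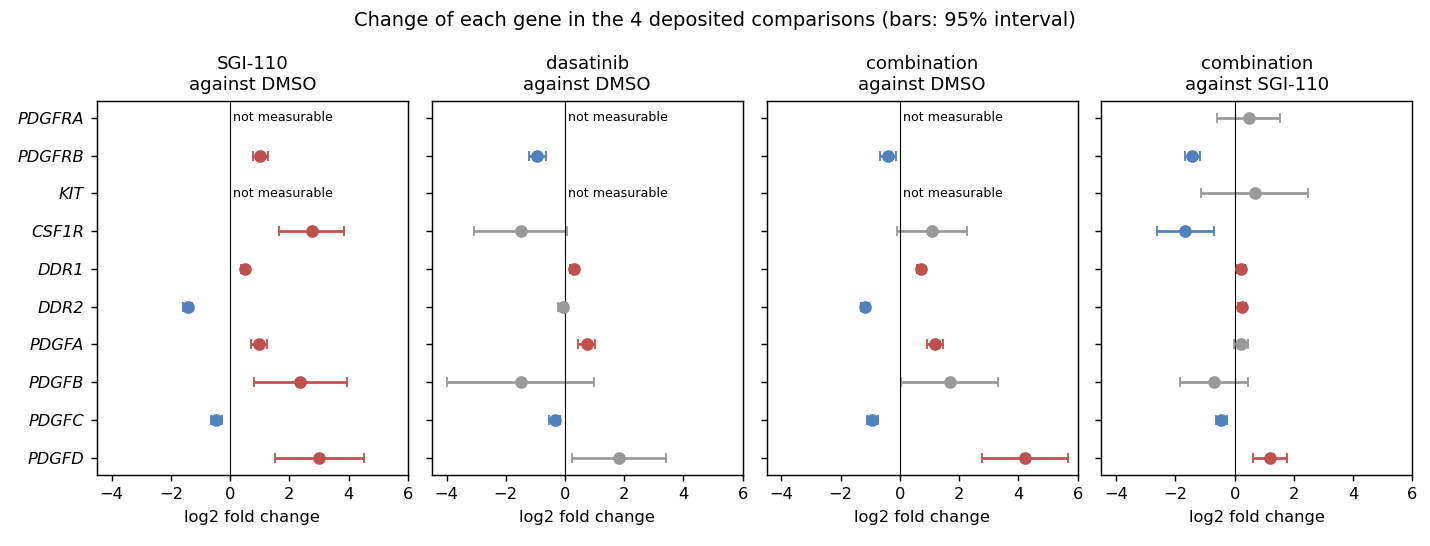
Log2 fold change of each gene in the 4 deposited comparisons, with 95% intervals; red marks genes higher and blue genes lower at an adjusted p under 0.05, and grey those not past it. With SGI-110 the changes measured ran from -1.43 (DDR2) to 3.01 (PDGFD), and PDGFRB turned from higher with SGI-110 to lower in the 3 comparisons with dasatinib.

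Among the ligands, PDGFA rose with either drug. Its solved level was 65.36 under DMSO, 129.4 under SGI-110, 108.7 under dasatinib and 149.7 under both drugs, so all treated groups lay above DMSO. The log2 changes against DMSO were 0.99 ± 0.14, 0.73 ± 0.14 and 1.20 ± 0.14, with adjusted p of 1.72e-11, 3.7e-06 and 9.16e-17 in the authors' deposited table. PDGFC, a chain that must be cut by a protease before it binds, fell under each drug. It stood at 887.8 under DMSO, 641 under SGI-110, 700.2 under dasatinib and 466.7 under both drugs. Its log2 changes were -0.47 ± 0.09, -0.34 ± 0.09 and -0.93 ± 0.10, with adjusted p of 2.35e-06, 0.00136 and 5.04e-21 in the authors' deposited table. The dasatinib effects on PDGFC with and without SGI-110 differed by -0.12 ± 0.13 (adjusted p = 0.787, interval -0.38 to 0.15, computed here from the authors' deposited table).

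PDGFD, the other chain that needs proteolysis, rose from near the limit of detection. Its solved level was 1.345 under DMSO, 10.87 under SGI-110, 4.725 under dasatinib and 25.02 under both drugs, the highest being the combination. SGI-110 raised it by 3.01 ± 0.76 (adjusted p = 0.000264) and both drugs by 4.22 ± 0.74 (adjusted p = 8.14e-08) against DMSO in the authors' deposited table. Dasatinib raised it further on top of SGI-110 (1.20 ± 0.29, adjusted p = 0.000301), while dasatinib alone gave 1.81 ± 0.81 (adjusted p = 0.076) per the authors' deposited table. PDGFB, the chain that binds both receptors, had solved levels of 1.68 under DMSO, 8.703 under SGI-110, 0.5965 under dasatinib and 5.375 under both drugs. Both groups with SGI-110 were above both groups without it, with standard errors of 0.38 to 1.06 log2 (n = 3). SGI-110 raised it (2.37 ± 0.80, adjusted p = 0.00803), and the combination against DMSO was not past the threshold (1.68 ± 0.83, adjusted p = 0.0855) per the authors' deposited table. Against dasatinib alone the combination was higher by 3.17 ± 1.14 (adjusted p = 0.0151, computed here from the authors' deposited table). The solved level with dasatinib, 0.5965, is at the limit of detection. With the variances of the combination and dasatinib comparisons with DMSO summed, the adjusted p of the Wald test was 0.11. That sum overstates the error, since DMSO does not enter this comparison.

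Counted together, SGI-110 moved all 10 genes past the threshold, 8 higher and 2 lower, where 47.5% of all genes tested were called (30.4% higher, 17.1% lower), per the authors' deposited table. Dasatinib alone raised 2 and lowered 2 of the 10, against 31.0% of all genes (17.8% higher, 13.2% lower), per the authors' deposited table. The combination against DMSO raised 5 and lowered 3, against 47.4% of all genes (29.8% higher, 17.6% lower), per the authors' deposited table. Against SGI-110 the combination raised 3 and lowered 3, against 31.2% of all genes (14.2% higher, 17.0% lower), per the authors' deposited table. Against dasatinib it raised 8 and lowered 2, where 43.2% of all genes were called (26.6% higher, 16.5% lower), computed here from the authors' deposited table. Only 4 stayed higher with summed variances, which ended the calls of KIT, PDGFA, PDGFB and PDGFD, and 4 were higher at a mean normalised count of 50 or more. Summed variances hold the DMSO variance, which does not enter the combination against dasatinib, so they overstate its error. The dasatinib count lies near its background share. The comparisons with DMSO share the same DMSO libraries, so their directions are not independent of each other.

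The interaction asks whether dasatinib moved a gene differently when SGI-110 was present. DDR2 and PDGFA passed the threshold, where 14.6% of all genes were called (6.09% higher, 8.49% lower), computed here from the authors' deposited table. For DDR2 the dasatinib effect was 0.33 ± 0.10 log2 higher with SGI-110 (adjusted p = 0.0156), from -0.08 without it to 0.25 with it, computed here from the authors' deposited table. For PDGFA it was 0.52 lower (-0.52 ± 0.18, adjusted p = 0.0334), from 0.73 without SGI-110 to 0.21 with it, computed here from the authors' deposited table. For DDR1 the difference was -0.08 ± 0.09 (adjusted p = 0.751, interval -0.26 to 0.09), computed here from the authors' deposited table. For PDGFRA and KIT the test was uninformative, since 2 of the 4 treatments were not measurable: the standard errors were 1.81 and 2.07 log2 (adjusted p = 0.965 and 0.95), computed here from the authors' deposited table.

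**Figure D3:**
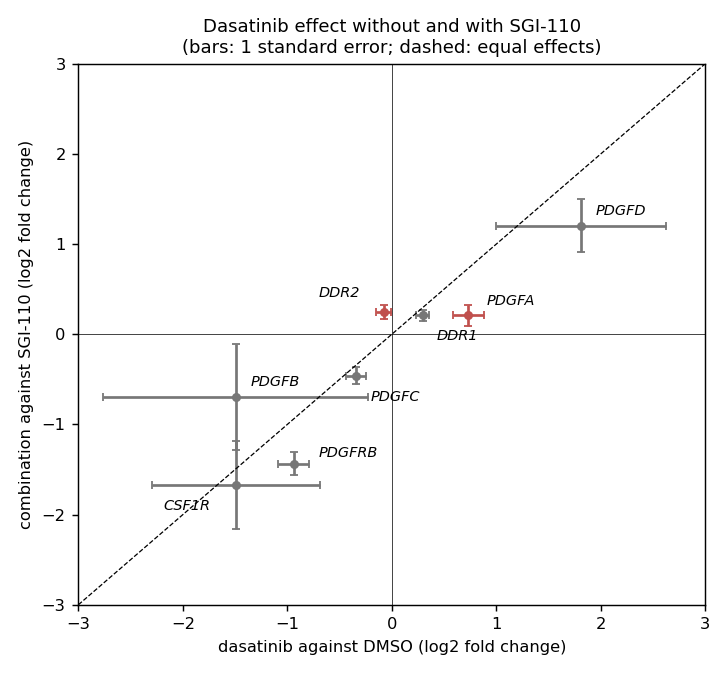
Log2 fold change of dasatinib alone (dasatinib against DMSO, horizontal) against that of dasatinib on top of SGI-110 (combination against SGI-110, vertical) for the 8 genes measurable in all treatments; bars are 1 standard error and the dashed line marks equal effects. DDR2 lies above the line and PDGFA below it, both in red as past the threshold, while PDGFRB and CSF1R are low on both axes.

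The mean normalised count in the tables covers all 24 libraries, so what the compared line did not supply came from the other line. PDGFD had a mean of 176.46 over all libraries in the authors' deposited table but a mean solved level of 10.49 in the compared line, which is 2.972% of its counts. For PDGFA the share was 8.261%, with a mean of 113.3 in the compared line and 1258 left for the other. These ligands were thus mostly transcripts of the line whose response the tables do not show. At the other end, 90.84% of CSF1R counts, 77.7% of KIT counts and 67% of PDGFRA counts came from the compared line. DDR1 was split nearly evenly (47.72%), with PDGFC at 42.01%, PDGFRB at 38.25%, DDR2 at 37.07% and PDGFB at 29.36%. Solved without a fitted term per treatment group, the levels with DMSO were 1190 instead of 1687 for DDR1 and 49.74 instead of 65.36 for PDGFA. The shares of DDR1 and PDGFA would then be lower. The shares of CSF1R, KIT, PDGFRA and PDGFB rest on few reads, and treatments that were not measurable entered as 0. The scale of all solved levels was set so that the 99th percentile of this share, over 4152 genes, was 100%, and the highest share was then 101.3%.

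**Figure D4:**
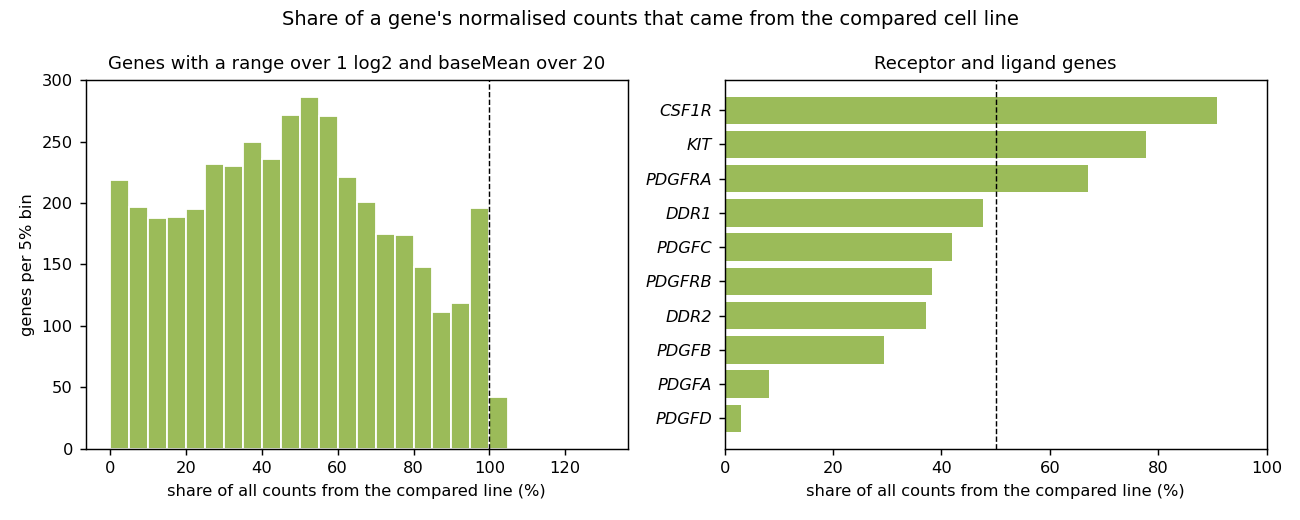
Left, share of all normalised counts that came from the compared line, for 4152 genes (genes per 5% bin; the dashed line marks 100%); right, the same share for the 10 receptor and ligand genes (the dashed line marks 50%). On the left, 238 genes lie between 95% and 105% and 0 lie above, which the scale sets in part; on the right, PDGFD (2.972%) and PDGFA (8.261%) are the lowest and CSF1R (90.84%) is the highest of the 10.

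Of 52 other genes of the pathway, 35 rose and 6 fell with SGI-110, 21 rose and 11 fell with dasatinib, and 32 rose and 7 fell with both drugs, per the authors' deposited table. The shares of all genes given above for these comparisons are 30.4% and 17.1%, 17.8% and 13.2%, and 29.8% and 17.6%. Their median log2 change with SGI-110 was 0.36 over the 46 measurable in both groups, against 0.04 over 21346 such genes, per the authors' deposited table. With dasatinib it was 0.103 against -0.003, and with the combination 0.332 against 0.037, per the authors' deposited table. On top of SGI-110, dasatinib raised 11 and lowered 17 of the 52, where 14.2% of all genes were higher and 17.0% lower, per the authors' deposited table. The median was -0.05 against -0.034 over all measurable genes, per the authors' deposited table.

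Ligands of KIT and CSF1R also changed. KITLG, the ligand of KIT, had solved levels of 197 under DMSO, 525.7 under SGI-110, 392.3 under dasatinib and 1278 under both drugs. It rose 6.485-fold with both drugs (2.70 ± 0.11, adjusted p = 2.01e-133) per the authors' deposited table, and dasatinib raised it on top of SGI-110 by 1.28 ± 0.10 (adjusted p = 9.51e-38) per the authors' deposited table. All treated groups lay above DMSO, and the combination was highest. IL34, a ligand of CSF1R, had solved levels of 182.2, 83.8, 74.94 and 34.32 in the same order. It fell with SGI-110 (-1.12 ± 0.16), with dasatinib (-1.28 ± 0.17) and with both drugs (-2.41 ± 0.19), with adjusted p of 5.04e-11, 3.82e-13 and 7.3e-34 in the authors' deposited table. CSF1, the other ligand of CSF1R, rose with SGI-110 (0.54 ± 0.10, adjusted p = 2.96e-07) and fell with dasatinib (-0.72 ± 0.11, adjusted p = 4.21e-10) per the authors' deposited table. With both drugs it gave 0.10 ± 0.10 (adjusted p = 0.435) against DMSO, per the authors' deposited table.

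Collagens, the ligands of the DDR receptors, moved in both directions. COL1A1 stood at 505 under DMSO, 11396 under SGI-110, 412.5 under dasatinib and 2850 under both drugs. With dasatinib added, COL1A1 was lower with the combination than with SGI-110 (-2.00 ± 0.06, adjusted p = 2.05e-250) per the authors' deposited table. Its interaction was -1.71 ± 0.10 (adjusted p = 4.73e-65, computed here from the authors' deposited table). COL5A1 fell with SGI-110 (-1.20 ± 0.05), with dasatinib (-0.65 ± 0.05) and with both drugs (-1.58 ± 0.05), with adjusted p of 1.77e-107, 1e-31 and 3.59e-183 in the authors' deposited table. Dasatinib alone raised COL2A1 (0.88 ± 0.06) and COL4A1 (0.66 ± 0.06), with adjusted p of 2.28e-46 and 1.18e-22 in the authors' deposited table. On top of SGI-110 it also raised COL3A1 (0.71 ± 0.07, adjusted p = 1.05e-25) per the authors' deposited table. COL1A2 was higher with the combination than with dasatinib by 7.83 ± 0.29 (adjusted p = 6.53e-154, computed here from the authors' deposited table).

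**Figure D5:**
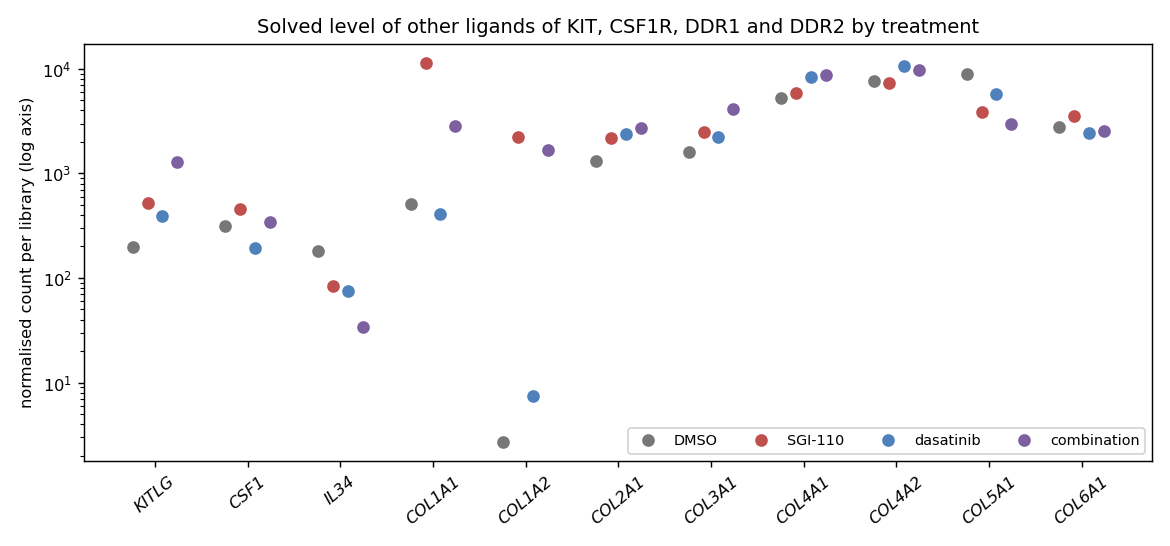
Solved level (normalised counts per library, log axis) of 11 other ligands of KIT, CSF1R, DDR1 and DDR2 with DMSO, SGI-110, dasatinib and both drugs; levels of different genes are not scaled for length. KITLG was highest and IL34 lowest with both drugs, and COL1A1 reached 11396 with SGI-110 and 2850 with both drugs.

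Downstream of the receptors, 19 adaptors and effectors had a median change of 0.068 log2 under SGI-110, against 0.04 over all measurable genes, with 9 higher and 4 lower where 30.4% of all genes were higher and 17.1% lower, per the authors' deposited table. SHC1, an adaptor that links receptors to RAS, rose with SGI-110 (1.48 ± 0.05, adjusted p = 5.46e-205) and with both drugs (1.67 ± 0.05, adjusted p = 1.43e-260) per the authors' deposited table. The docking protein gene GAB2 had solved levels of 529.3 under DMSO, 1115 under SGI-110, 657.7 under dasatinib and 718.2 under both drugs. It was lower with the combination than with SGI-110 (-0.63 ± 0.07, adjusted p = 2.23e-18) per the authors' deposited table. Its interaction was -0.95 ± 0.10 (adjusted p = 4.45e-18, computed here from the authors' deposited table). STAT5B fell with both drugs (-0.38 ± 0.06, adjusted p = 2.21e-10) and SOS2 with SGI-110 (-0.31 ± 0.07, adjusted p = 3.45e-05) per the authors' deposited table. CRKL was lower with the combination than with dasatinib (-0.33 ± 0.05, adjusted p = 1.12e-10, computed here from the authors' deposited table). Of 9 negative regulators such as CBL, SOCS1 and protein tyrosine phosphatases, 7 rose with SGI-110, where 30.4% of all genes did, per the authors' deposited table. The other two, CBLB (0.10 ± 0.09, adjusted p = 0.386) and PTPN2 (0.15 ± 0.08, adjusted p = 0.115), did not pass the threshold in the authors' deposited table. The phosphatase gene PTPN2 had an interaction of 0.37 ± 0.11 (adjusted p = 0.0105, computed here from the authors' deposited table). NRP1, a co-receptor of PDGF and VEGF, rose with SGI-110 (1.76 ± 0.09, adjusted p = 3.4e-86) and with dasatinib (0.83 ± 0.09, adjusted p = 2.38e-17) per the authors' deposited table. LRP1, which binds PDGFRB at the membrane, was lower with the combination than with SGI-110 (-0.66 ± 0.07, adjusted p = 3.25e-22) per the authors' deposited table. Its solved levels were 15150 under DMSO, 21622 under SGI-110, 12971 under dasatinib and 13651 under both drugs.

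FLT3, FLT1, KDR and FLT4, related receptors outside the 10 genes, were not measurable with DMSO. All 4 were higher with SGI-110, where 30.4% of all genes were higher, in the authors' deposited table. KDR reached a solved level of 6.498 with SGI-110, FLT1 24.19, FLT4 29.85 and FLT3 2.543. FLT4 was lower with the combination than with SGI-110 (-2.19 ± 0.37, adjusted p = 5.68e-08) per the authors' deposited table. With dasatinib alone FLT3 stood at 2.747 and FLT1 at 2.374, while KDR and FLT4 were not measurable there, as was the case for PDGFRA and KIT. All 4 epithelial markers, EPCAM, KRT8, KRT18 and CDH1, were not measurable with DMSO. They were higher with SGI-110, against the same 30.4% of all genes, in the authors' deposited table. KRT18 reached a solved level of 390.2 with SGI-110. With dasatinib alone KRT8 stood at 1.19 and the other three were not measurable. All 4 endothelial markers were also higher with SGI-110, against 30.4% of all genes. PECAM1 stood at 561.7 with DMSO and 1790 with SGI-110 (adjusted p = 1.26e-94) per the authors' deposited table.

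The genes whose changes were closest to those of PDGFRB over the 3 comparisons with DMSO, out of 12231 compared, were TRPM2 (distance 0.0461 log2), AHNAK2 (0.144) and PTK6 (0.155), computed from the authors' deposited table. The closest to DDR2 were SHMT2 (0.0812), DHODH (0.111) and GLTSCR2 (0.12), computed from the authors' deposited table. The distance is the Euclidean distance of the 3 log2 fold changes. The same measure was not taken for PDGFRA, which had no measurable level with DMSO.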

How the data were processed

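Messenger RNA of 2 rhabdomyosarcoma lines was sequenced with paired reads of 75 bases, per the labels' protocols, in 24 libraries of 8 groups. The submitters' processing notes name the tools HISAT2 2.1.0 and Trim Galore 0.4.2, as well as DESeq2 1.16.1, DESeq and featureCounts 1.5.1, and the build GRCh38, with no role or order. The authors deposited 4 tables of their comparisons, with 29639 gene rows each, in which no cell line is named. In these the deposited mean normalised count is a signal over all 24 libraries. The deposited standard error is a score on the log2 scale, and the deposited Wald statistic is a score without unit. The deposited p-value and adjusted p-value are the authors'. Counts per library were not used here, so depth per library is unknown.

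The log2 fold change was computed as Wald statistic times standard error. The variance of each treatment group was solved from the standard errors, and from it the interaction and the combination against dasatinib, with a Wald test and Benjamini-Hochberg adjustment over all genes. The level of each group was solved from the variances as 1 divided by the mean plus a dispersion, with 1 term per treatment group fitted over 3816 genes; these terms lowered the median residual from 6.87% to 0.437% of the range. The level scale divisor was 1.095. The steps were tested on simulated data. Python 3.11.15, numpy 2.4.6, scipy 1.17.1, pandas 2.3.3 and matplotlib 3.10.9 were used, with coordinates of GENCODE release 29.

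The 10 genes and all gene lists were chosen with earlier results of these data known. The text names the 10 genes, the 3 pathway genes with the highest and the 3 with the lowest Wald statistic in each comparison (adjusted p under 0.05, mean normalised count of at least 50), and for PDGFRB and DDR2 the 3 genes nearest in fold change with every standard error under 0.3; the rule also named PDGFRA. Other genes named, among them markers, PTPN2 and CBLB under SGI-110, LRP1 and the related receptors, were chosen after their values were seen where no such rank applied. Alternatives were other thresholds, a minimum mean normalised count of 50, adjustment over all genes and summed variances.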

Additional observations from a re-analysis of the deposited data

Results flagged for a closer look

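The effect of dasatinib differed with and without SGI-110 for 2 of the 10 genes, by a test of the difference itself computed from the authors' deposited table. For DDR2 the effect was 0.33 log2 higher with SGI-110 (± 0.10, adjusted p = 0.0156), with solved levels of 4674 and 4427 without SGI-110 and 1734 and 2058 with it. For PDGFA the difference was -0.52 log2 (± 0.18, adjusted p = 0.0334), with solved levels of 65.36 and 108.7 without SGI-110 and 129.4 and 149.7 with it. Of all genes, 14.6% passed the same threshold, so the count of 2 in 10 lies near the share over all genes. Neither gene passed at an adjusted p under 0.01, and the cause of neither difference was tested.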

How the results depend on the processing

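Adjustment over all genes in place of the authors' adjusted p left all 8 counts of the deposited comparisons within 1.5 times. Tests limited to a mean normalised count of at least 50 left 4 genes higher with SGI-110 and 3 with the combination against DMSO. They left 4 higher with the combination against dasatinib. In the interaction 2 genes then had a lower dasatinib effect, where PDGFRB joined PDGFA (adjusted p = 0.0325 by the Wald test). Genes with a lower mean over all libraries were not tested under it. That mean covers both lines. PDGFD, low in the compared line, was therefore still tested (mean of 176.46). With a minimum change of 1 log2, 1 gene was lower with SGI-110, 0 higher and 0 lower with dasatinib, 1 lower with the combination against DMSO, 1 higher against SGI-110, 5 higher and 1 lower against dasatinib, and 0 and 0 in the interaction. At an adjusted p under 0.01 the Wald test of the interaction called 0 higher and 0 lower, with 3 genes at an unadjusted p under 0.05. Summed variances without covariance left 4 genes higher with the combination against dasatinib, and KIT, PDGFA, PDGFB and PDGFD were lost. Those sums hold the DMSO variance, which does not enter that comparison, so they overstate its error. These alternatives leave the fold changes as they are, so they do not bear on directions.

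As alternatives chosen after seeing the data, levels solved without group terms were 0.705 to 1.13 times those given, and a scale from the 95th percentile gave 1.04 times. Without group terms, the 8 levels that moved most were those of DDR1 and PDGFA. No paired analysis was possible because the tables hold no values per library, and leaving out each replicate was not run for the same reason. Errors of over 0.3 log2 were found for levels as high as 33.91 normalised counts (CSF1R with SGI-110).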
